A study of Mus musculus with 137 samples.

Results

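The 34 genes described here cover cholesterol synthesis, its regulation and its removal in mouse bone marrow-derived macrophages, and were followed at rest and during stimulation in 3 cohorts with altered Beclin1. They are 16 enzymes from acetyl-CoA to cholesterol (Acat2, Hmgcs1, Mvk, Pmvk, Mvd, Idi1, Fdps, Fdft1, Sqle, Lss, Cyp51, Sc4mol, Nsdhl, Hsd17b7, Ebp and Dhcr7), 5 genes of SREBP regulation and sterol transfer (Srebf2, Srebf1, Insig1, Insig2 and Stard4), 3 of fatty acid synthesis (Fasn, Scd1 and Scd2), 6 of the LXR receptors and efflux (Nr1h3, Nr1h2, Abca1, Abcg1, Apoe and Mylip), 3 oxysterol and ester enzymes (Ch25h, Cyp27a1 and Soat1) and Lpl. They were taken by symbol, and 34 of 34 were found among the 34573 symbols of each count table. A filter on low counts left 33 members in cohort KO1, 32 in KO2 and 33 in KI: Scd1 was too low to test in all 3 cohorts and Acat2 in KO2.

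Marrow came from mice aged 7 weeks, and M-CSF (20 ng/ml) was present during the 7 days in which it grew into macrophages. Cells were then left untreated (0 h) or given lipopolysaccharide and interferon-gamma, each at 100 ng/ml, for 6 h or 24 h. In KO1 and KO2 both genotypes carry floxed Beclin1 alleles: the knockout (KO) is Beclin1flox/flox-LysM-Cre+ and the control (WT) is Beclin1flox/flox-LysM-Cre-. LysM-Cre is expressed in myeloid cells from the Lyz2 locus, so that KO and WT also differ in the Cre allele itself. In KI both Beclin1 alleles carry F121A, a change of 1 amino acid, and WT littermates are the controls. KO1 has 3 cultures per genotype at each time (S33 to S35 in WT, S36 to S38 in KO), each the sum of 3 repeat libraries, while groups hold 8 libraries in KO2, except 7 for WT at 24 h, and 6 in KI. The labels do not say whether the numbered libraries of KO2 and KI are separate mice or cultures, so the tests measure the spread between these libraries, which may be technical.

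Cells make cholesterol from acetyl-CoA through mevalonate, isoprenoids, squalene and lanosterol. The transcription factor SREBP2 (Srebf2) turns on these enzymes when membranes of the endoplasmic reticulum lack sterol, while the INSIG proteins hold it back there when sterol is plentiful. Oxysterols and late precursors activate the LXR receptors (Nr1h3 and Nr1h2), which turn on the exporters Abca1 and Abcg1, the carrier apolipoprotein Apoe and Mylip, a ubiquitin ligase that limits lipoprotein uptake. In macrophages, interferon and Toll-like receptor signals are known to induce Ch25h, whose product 25-hydroxycholesterol restrains SREBP processing.

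Of the 34 members, 26 had a promoter in the RefSeq table used here (build GRCm38.p6), each read from 250 bases before to 50 after a start site. Of these, 4 are printed: Hmgcs1, Idi1 and Sc4mol (listed as Msmo1), which were lower in F121A cells after 6 h of stimulation without overlap, and Ch25h, which had the largest change of any member on stimulation. These lie at chr13:119690101-119690400 (plus strand), chr13:8885356-8885655 (plus strand), chr8:64733529-64733828 (minus strand) and chr19:34475099-34475398 (minus strand). Capitals mark every match, on either strand, to a sterol response element (TCACNCCAC), the box bound by the SREBP partner NF-Y (CCAAT, which reads ATTGG on the other strand) or the core of an interferon response element (GAAANNGAA).
Hmgcs1: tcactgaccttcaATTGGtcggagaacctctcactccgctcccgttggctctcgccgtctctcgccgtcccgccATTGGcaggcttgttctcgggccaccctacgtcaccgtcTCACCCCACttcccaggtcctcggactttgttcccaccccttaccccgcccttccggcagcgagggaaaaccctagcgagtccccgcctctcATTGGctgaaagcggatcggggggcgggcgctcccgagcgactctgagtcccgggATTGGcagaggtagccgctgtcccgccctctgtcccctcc
Idi1: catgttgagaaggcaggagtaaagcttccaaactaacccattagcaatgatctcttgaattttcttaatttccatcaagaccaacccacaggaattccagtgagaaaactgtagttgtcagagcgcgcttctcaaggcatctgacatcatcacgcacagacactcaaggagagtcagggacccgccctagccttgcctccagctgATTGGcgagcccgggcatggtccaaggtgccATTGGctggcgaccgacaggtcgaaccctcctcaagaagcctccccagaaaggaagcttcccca
Sc4mol: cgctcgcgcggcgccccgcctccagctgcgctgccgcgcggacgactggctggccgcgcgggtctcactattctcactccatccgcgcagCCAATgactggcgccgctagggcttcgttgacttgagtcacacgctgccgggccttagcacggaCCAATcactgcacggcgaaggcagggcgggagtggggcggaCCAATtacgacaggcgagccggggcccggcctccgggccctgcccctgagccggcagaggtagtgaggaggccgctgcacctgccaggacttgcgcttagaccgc
Ch25h: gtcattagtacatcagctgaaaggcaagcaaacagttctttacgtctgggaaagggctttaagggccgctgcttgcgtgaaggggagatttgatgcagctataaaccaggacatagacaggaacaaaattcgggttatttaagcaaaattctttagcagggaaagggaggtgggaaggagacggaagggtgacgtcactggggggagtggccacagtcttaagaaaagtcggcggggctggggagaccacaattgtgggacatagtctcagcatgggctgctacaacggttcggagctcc
The NF-Y box stood in the promoters of 12 of 13 synthesis enzymes (92.3%), 4 of 4 genes of SREBP regulation and 1 of 5 LXR and efflux genes (20%), with a gene counted where any of its promoters held it. Over all 32851 promoters of the table, each counted by itself, the share was 37.4%. The sterol response element as spelled stood in 1 of 26 members (3.85%), Hmgcs1, against 1.24% of all promoters. The interferon core stood in 2 of 26 members (7.69%), Ebp and Apoe, against 8.56% of all promoters. A member could match in any of its promoters, so its share is not on the same measure as that over promoters. The printed Ch25h window held none of these letters. A match of letters describes the window and shows no binding.

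Levels are counts relative to the TMM-scaled library total (CPM) within a cohort. For KO2 and KI they are given as the median, with the lowest and highest library in brackets, and for KO1 as the values of the 3 cultures, separated by slashes. A level is compared only within a gene. Fold changes are on the log2 scale with their standard error (SE) after ±. A gene was called at an adjusted p under 0.05 in edgeR's quasi-likelihood test, adjusted over all genes tested in the cohort. Library totals spanned 1898574 to 6579185 counts (KO1), 1448218 to 15627379 (KO2) and 3574158 to 11786453 (KI). Becn1 was lower in KO than in WT at 0, 6 and 24 h in KO1 (log2 -1.51, -1.52 and -1.41) and KO2 (-3.28, -3.31 and -2.63), called each time, and was not called in KI. In KO2 the genotypes also differ in sex: WT libraries held 104.5 to 234.7 CPM of Xist and at most 0.694 of Ddx3y, and KO libraries 6.38 to 25.2 CPM of Ddx3y and at most 1.46 of Xist, so that genotype and sex cannot be told apart there. Labels of 2 libraries conflict, with a title of 6 h and a description of 24 h: 1 of the 3 repeats of KO culture S38 in KO1 and WT number 1 in KI. Both were taken as 6 h, and in Ch25h they lay with the 6 h libraries: 163 CPM by library total against 109 to 296 at 6 h and 11.3 to 40.2 at 24 h in KO1, and 556 against 469 to 558 and 9.44 to 25.1 in KI. In KO2 a pair of libraries stood low for several members (WT 0 h number 4 and KO 6 h number 7). The cells carried macrophage markers in every group. Lyz2, the locus that carries LysM-Cre, was lower in KO2 KO than WT without overlap (-1.52, -1.71 and -1.31 at 0, 6 and 24 h). In KO1 it was also lower in KO without overlap at 0, 6 and 24 h (2936 to 5745 CPM against 7109 to 10940 at 24 h). F121A cells of KI were lower without overlap at rest (39250 to 49160 against 51380 to 58610) and 24 h (8306 to 9886 against 11220 to 14920), and overlapped with WT at 6 h. The sum of the other 9 macrophage markers overlapped between KO and WT of KO2 at rest (6720 to 9280 against 7950 to 11500 CPM), 6 h (18500 to 25400 against 18600 to 23800) and 24 h (12500 to 19000 against 15500 to 22500). Of these 9, 1 was called higher and 2 lower at rest, 1 and 5 at 6 h and 1 and 3 at 24 h, C1qa and C1qb lower each time. Summed lymphocyte markers reached at most 1.74 CPM and erythroid markers 1.92. Other lists were higher: monocyte markers reached 706 CPM (resting KI WT), neutrophil markers 637 (resting KO1 KO) and fibroblast markers 22 (resting KO1 WT). Some sums were apart between genotypes at 24 h. Monocyte markers of KO2 were 23 to 29.2 CPM in KO and 9.58 to 17.2 in WT. Neutrophil markers of KI were 3.53 to 5.64 in F121A and 7.49 to 12.8 in WT. Their part in the genotype differences was not tested. In bulk RNA, fewer cells of a type and less RNA per cell cannot be told apart.

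In WT cells, stimulation lowered more members of this gene set than it raised in each cohort. At 6 h the enzymes Mvk, Fdps, Sc4mol, Nsdhl and Ebp fell in all 3 cohorts, as did the lipogenic genes Fasn and Scd2, the exporter Abca1, the oxysterol enzyme Cyp27a1, the ester-forming Soat1 and the lipase Lpl, 11 members in all. Insig1 and Ch25h, 2 members, rose in all 3. At 24 h Mvk, Cyp51, Dhcr7, Fasn, Cyp27a1 and Lpl, 6 members, were below rest in every cohort, while Ch25h and both LXR receptors, 3 members, were above. The share of all genes called alike in all 3 cohorts was not taken. These shared counts therefore list members and have no background. Under library totals in place of TMM the median of all genes at 6 h moves to -1.11 (KO1), -0.93 (KO2) and -1.19 (KI), and at 24 h to -1.14, -0.47 and -0.84. With TMM these medians were -0.09, -0.11 and 0.00 at 6 h and -0.11, -0.03 and 0.03 at 24 h. Changes over time are therefore relative to the other genes. Of the 66 calls behind the shared members just listed (each in 3 cohorts) 64 were kept with that scaling. It shifts genes as a whole downward, so calls of a fall moved further down and only calls of a rise were put at risk. The 2 lost were both rises, Insig1 at 6 h in KO1 and KO2.

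**Figure D1:**
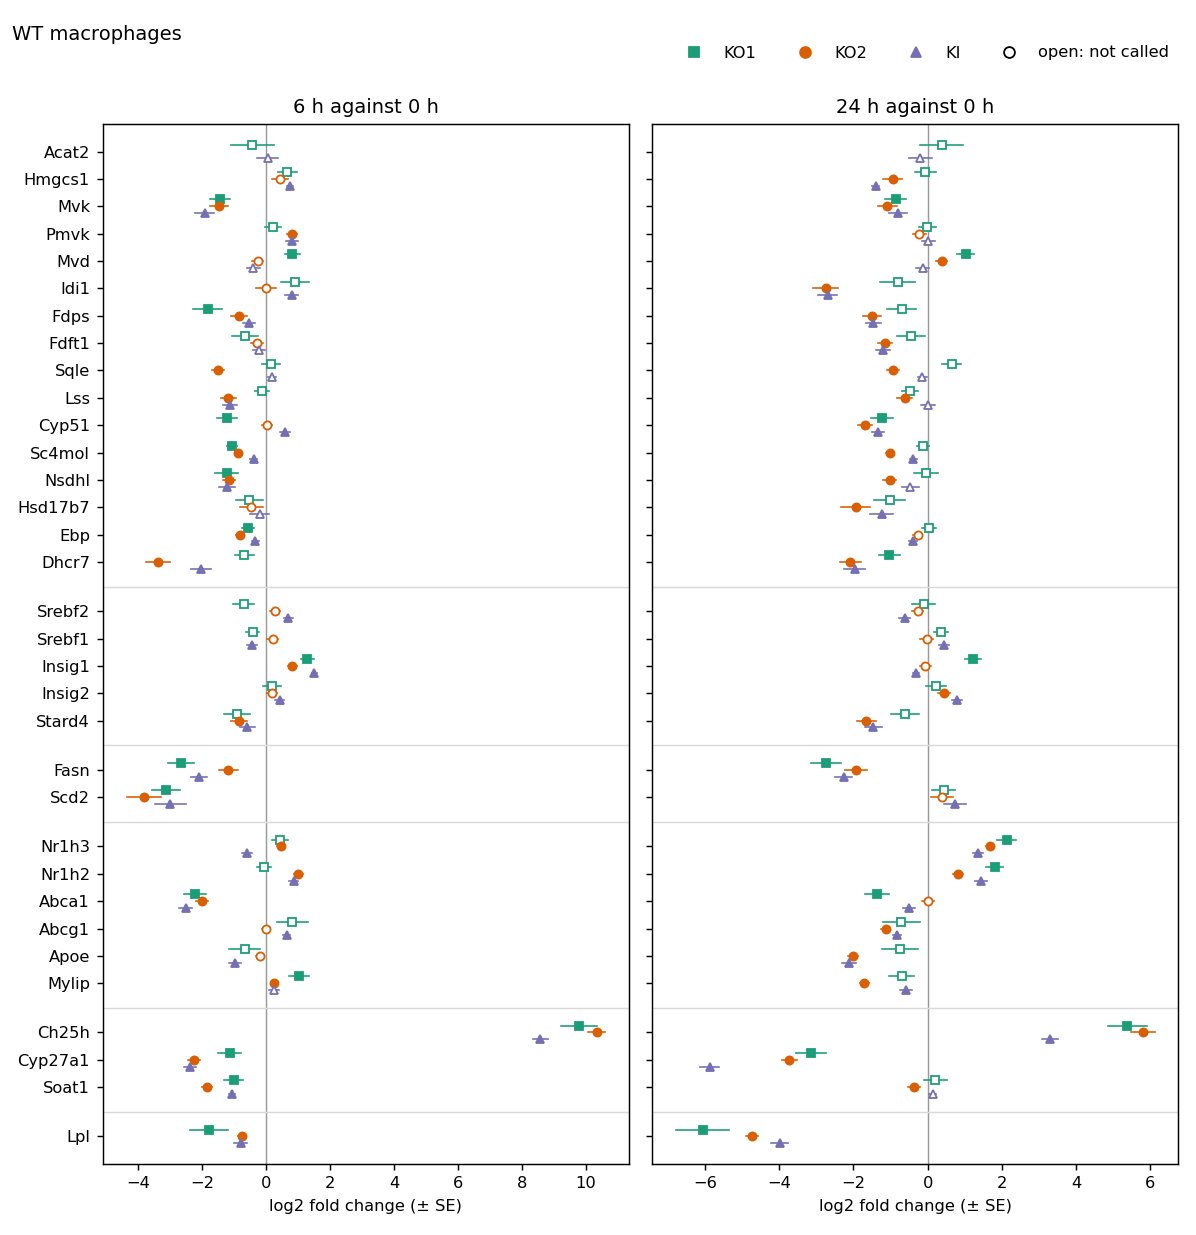
Log2 fold change ± SE of the tested members in WT cells at 6 h (left) and 24 h (right) against 0 h, ordered by role, in KO1 (squares), KO2 (circles) and KI (triangles), filled where called on the TMM scale. Ch25h stands far to the right at both times, and Lpl and Cyp27a1 far to the left at 24 h.

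By count, 4 members rose and 12 fell at 6 h in KO1, where 25.7% of all genes tested rose and 31.1% fell. The counts were 6 and 15 in KO2 (32.5% and 38.3% of all genes) and 10 and 17 in KI (36.7% and 36.8%). At 24 h against rest they were 5 higher and 7 lower in KO1 (21.3% and 20.6%), 5 and 20 in KO2 (29.6% and 29.7%) and 6 and 20 in KI (33.9% and 29.9%). From 6 h to 24 h 9 rose and 7 fell in KO1 (28.7% and 25.9%), 9 and 16 in KO2 (31% and 28%) and 10 and 17 in KI (33.6% and 31.8%). The lower side at 24 h in KO2 and KI thus held a larger share of the members than of all genes. The median over the synthesis enzymes at 24 h was -0.28 in KO1 (16 tested), -1.02 in KO2 (15) and -0.64 in KI (16), beside -0.11, -0.03 and 0.03 over all genes.

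Early in the pathway the enzymes did not move as a block. Hmgcs1, which makes HMG-CoA, held 18.6/17.9/17.2 CPM in the 3 resting KO1 cultures, 19/33.9/32.6 at 6 h and 17.3/18.3/15.8 at 24 h. In KO2 it held 22.5 [7.32 to 33.98] CPM at rest, 28.98 [12.7 to 41.7] at 6 h and 11.3 [5.65 to 12.9] at 24 h. In KI it held 37.95 [36.1 to 42.5], 61.6 [54.8 to 78.1] and 14.5 [11.7 to 16.7]. In KI the 3 times did not overlap: the 6 h libraries were the highest and the 24 h libraries the lowest. The 6 h rise in KI was 0.75 ± 0.10 (adjusted p = 5.47e-09, 6 of 6), where the count after the p is of libraries on that side of the resting mean, and with library totals it turned to -0.45. It was not called in KO1 (0.67 ± 0.29 at adjusted p = 0.0541) or KO2 (0.43 ± 0.25 at adjusted p = 0.117). At 24 h the gene was below rest in KO2 (-0.94 ± 0.26 at adjusted p = 0.00158 in 7 of 7) and KI (-1.40 ± 0.10 at adjusted p = 9.3e-16 in 6 of 6), and in KO1 the change was -0.06 ± 0.29 (adjusted p = 0.884).

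Mvk, the kinase of mevalonate, fell from 3.99/4.33/3.97 CPM to 1.08/1.29/2.15 in the KO1 cultures. In KO2 it fell from 5.66 [4.79 to 10.2] to 2.08 [0.766 to 4.7] and in KI from 3.197 [2.48 to 3.46] to 0.7104 [0.481 to 1.28]. No 6 h library overlapped with rest in any cohort, and the changes were -1.44 ± 0.31 (adjusted p = 0.000643, 3 of 3), -1.47 ± 0.29 (adjusted p = 1.18e-05, 8 of 8) and -1.91 ± 0.30 (adjusted p = 3.65e-07, 6 of 6). At 24 h it stood at 2.14/2.72/1.93, 2.96 [1.73 to 3.79] and 1.71 [0.976 to 2.29] CPM in KO1, KO2 and KI, still without overlap with rest (-0.86 ± 0.28, -1.09 ± 0.26 and -0.81 ± 0.24, all called).

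Idi1, which isomerises isopentenyl diphosphate, showed its change late. WT levels were 2.38/4.89/2.44 CPM at rest, 5.56/6.62/6.29 at 6 h and 2.59/0.828/2.14 at 24 h in KO1. In KO2 they were 5.13 [3.66 to 5.93], 4.74 [2.63 to 6.94] and 0.599 [0.269 to 1.48], and in KI 8.88 [6.78 to 10.8], 14.3 [11.6 to 21.5] and 1.23 [0.976 to 2.07]. All 24 h libraries of KO2 and KI lay below all resting ones (-2.75 ± 0.33 at adjusted p = 2.42e-10 in 7 of 7 and -2.69 ± 0.26 at adjusted p = 4.47e-12 in 6 of 6), and KO1 was not called (-0.81 ± 0.47 at adjusted p = 0.177). At 6 h KI alone was called, higher (0.80 ± 0.20 at adjusted p = 0.000583 in 6 of 6), and with library totals that turned to -0.40.

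Fdps, which joins isoprenoids to farnesyl diphosphate, had few reads but fell in all 3 cohorts at 6 h. KO1 went from 3.15/4.55/3.05 CPM to 0.927/1.94/0.166, KO2 from 7.41 [4.33 to 13.4] to 4.05 [3.11 to 7.03] and KI from 7.67 [6.75 to 8.08] to 5.31 [3.21 to 6.37]. The groups overlapped only in KO2, and the changes were -1.82 ± 0.46 (adjusted p = 0.00232, 3 of 3), -0.83 ± 0.25 (adjusted p = 0.00246, 8 of 8) and -0.53 ± 0.20 (adjusted p = 0.0155, 6 of 6). At 24 h the levels were 3.49/1.54/1.604, 2.94 [0.741 to 4.401] and 2.57 [1.22 to 4.09] CPM, lower than rest in KO2 and KI (-1.50 ± 0.25 and -1.47 ± 0.20, both called) and not called in KO1 (-0.70 ± 0.39).

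Sqle, the squalene epoxidase that commits squalene to sterols, was called over time in KO2 alone. In KO2 WT cells it fell from 20.2 [11.2 to 24.1] CPM to 6.82 [4.39 to 8.85] with no overlap (-1.51 ± 0.18 at adjusted p = 1.41e-10 in 8 of 8) and stood at 10.2 [7.98 to 12.2] at 24 h (-0.93 ± 0.17 at adjusted p = 3.69e-06 in 7 of 7). In KI the values were 12.97 [9.65 to 15.1], 14.4 [12.6 to 16.6] and 11.4 [8.65 to 14.5], overlapping with rest at both times and not called. In KO1 they were 6.57/10.7/4.35, 7.41/9.53/7.46 and 13.1/12.8/8.23, also not called. The difference between cohorts in this time course was not tested.

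Cyp51, the lanosterol demethylase, and Sc4mol, the methyl sterol oxidase of the next steps, had different timing. Cyp51 in KO1 went from 6.89/8.54/7.25 CPM to 3.09/3.39/3.31 at 6 h and 1.799/4.61/3.31 at 24 h. KO2 held 11.96 [10.3 to 16.1], 13.03 [9.67 to 15.9] and 3.77 [2.601 to 5.19], and KI 14.9 [11.7 to 19.6], 23.98 [17.3 to 25.9] and 6.002 [4.46 to 7.36]. Cyp51 at 24 h was lower than rest without overlap in all 3 (-1.22 ± 0.30 at adjusted p = 0.00295 in 3 of 3, -1.68 ± 0.19 at adjusted p = 9.98e-12 in 7 of 7 and -1.33 ± 0.16 at adjusted p = 1.66e-09 in 6 of 6). At 6 h it was lower in KO1 (-1.21), uncalled in KO2 (0.03) and higher in KI (0.59, -0.61 with library totals). Reads of Cyp51 and its neighbour Akap9 can share exon bases and, being unstranded, cannot be told apart there. Exon bases are also shared by Hmgcs1 (with Gm48342), Idi1 (Gm48574), Fdps (Gm43738), Fdft1 (Ctsb) and Lss (4930483K19Rik). The same is true of Srebf1 (Mir6922 and Rai1), Scd2 (Mir5114), Nr1h3 (Gm13783) and Ch25h (Gm26902).

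Sc4mol fell at 6 h in each cohort. It went from 31.4/35.8/30.2 CPM to 15.1/16.8/14.9 in KO1, from 50 [44.5 to 54.3] to 27.6 [21.04 to 32.7] in KO2 and from 38.8 [28.8 to 43] to 28.4 [24.7 to 32.3] in KI. Rest and 6 h overlapped only in KI (-1.06 ± 0.16 at adjusted p = 2.18e-05 in 3 of 3, -0.86 ± 0.10 at adjusted p = 1.77e-11 in 8 of 8 and -0.39 ± 0.10 at adjusted p = 0.000751 in 6 of 6). At 24 h KO1 was back at 30.9/33.5/24.9 CPM, not called against rest (-0.13 ± 0.16), while KO2 at 23.8 [22.6 to 27.99] and KI at 27.6 [24.2 to 36.4] stayed lower (-1.02 ± 0.10 and -0.38 ± 0.10, both called).

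Dhcr7, the reductase of the last step, was low after stimulation. In KO2 it went from 5.21 [2.28 to 7.08] CPM to 0.368 [0 to 0.957] and 1.26 [0.2 to 1.48], and in KI from 4.79 [4.12 to 5.67] to 1.03 [0.666 to 1.93] and 1.18 [0.418 to 2.01]. KO1 went from 3.41/4.27/3.28 to 2.62/2.58/1.66 and 1.69/1.42/2.25. Stimulated and resting libraries did not overlap in any cohort. The 24 h change was -1.03 ± 0.29 (adjusted p = 0.00808, 3 of 3) in KO1, -2.08 ± 0.28 (adjusted p = 3.68e-09, 7 of 7) in KO2 and -1.96 ± 0.28 (adjusted p = 6.32e-08, 6 of 6) in KI.

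The regulators went partly the other way. Insig1, the sterol sensor that retains SREBP, rose at 6 h from 11.5/13.3/15.3 to 26.2/37.5/34.8 CPM in KO1, from 21.1 [15.2 to 28.8] to 39.5 [29.6 to 43.3] in KO2 and from 25.8 [22.2 to 30.3] to 73.9 [63.3 to 80.8] in KI. There was no overlap (1.30 ± 0.22 at adjusted p = 5.09e-05 in 3 of 3, 0.82 ± 0.14 at adjusted p = 5e-07 in 8 of 8 and 1.51 ± 0.09 at adjusted p = 3.99e-19 in 6 of 6). With library totals the 6 h change was 0.26 (adjusted p = 0.28) in KO1 and 0.007 (adjusted p = 0.967) in KO2, so that only the KI call was kept. The 24 h level was 30.8/31.8/31.4 CPM in KO1 (1.23, called, and 0.20 at adjusted p = 0.375 with library totals). It was 21.3 [16.7 to 24.4] in KO2 (-0.06, not called) and 20.3 [18.9 to 24.01] in KI (-0.31, called lower). Insig2, its paralog, went from 12.03 [9.29 to 14.4] CPM to 15.6 [10.6 to 23.96] and 20.9 [15.6 to 26.4] in KI, called higher at both times (0.43 ± 0.14 and 0.79 ± 0.14) but at -0.76 and -0.09 with library totals. In KO2 it was 10.8 [7.67 to 14.6], 12.9 [6.63 to 16.3] and 15.2 [11.5 to 16.4], called higher at 24 h (0.44 ± 0.16, and 0.005 at adjusted p = 0.983 with library totals). In KO1 it was 6.12/6.35/8.77, 6.49/8.08/9.77 and 10.8/6.86/7.17, not called. Stard4, which carries cholesterol between membranes, held 6.81 [3.798 to 9.45] CPM at rest, 3.38 [1.17 to 5.89] at 6 h and 2.13 [1.43 to 2.83] at 24 h in KO2 and 6.01 [4.901 to 7.13], 3.54 [2.33 to 6.29] and 2.12 [1.59 to 2.96] in KI. It was lower at 24 h than at rest without overlap (-1.65 ± 0.26 at adjusted p = 1.93e-07 in 7 of 7 and -1.46 ± 0.23 at adjusted p = 5.14e-07 in 6 of 6). KO1 held 2.96/6.69/2.52, 3.09/2.42/0.994 and 3.26/2.37/2.35 CPM and was not called at either time. Srebf2 itself was called at 6 h in KI (0.70 ± 0.15 at adjusted p = 7e-05), at -0.50 with library totals, and at 24 h in KI (-0.62), and in neither other cohort.

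The lipogenic genes fell together at 6 h and parted by 24 h. Fasn, fatty acid synthase, fell from 17.1/22.8/8.54 CPM to 2.47/3.72/1.49 and 1.799/2.603/2.89 at 6 h and 24 h in KO1. KO2 held 5.04 [3.23 to 8.94], 2.07 [1.04 to 4.42] and 1.35 [0.944 to 2.27]. In KI it held 8.78 [7.97 to 11.3], 2.27 [1.24 to 2.89] and 1.38 [0.882 to 3.95]. The 24 h change was -2.73 ± 0.40 (adjusted p = 1.99e-05, 3 of 3), -1.93 ± 0.29 (adjusted p = 7.36e-08, 7 of 7) and -2.26 ± 0.23 (adjusted p = 1.6e-11, 6 of 6) in KO1, KO2 and KI. Resting and 24 h libraries of Fasn did not overlap in any cohort. Scd2, a fatty acid desaturase, was barely detected at 6 h: KO1 went from 5.09/4.95/4.195 CPM to 0.772/0.646/0.166, KO2 from 3.18 [0.912 to 4.33] to 0.0957 [0 to 0.53] and KI from 2.43 [1.38 to 3.38] to 0.204 [0 to 0.801]. Its changes were -3.13 ± 0.45 (adjusted p = 8.23e-06, 3 of 3), -3.82 ± 0.53 (adjusted p = 5.94e-09, 8 of 8) and -2.99 ± 0.48 (adjusted p = 5.92e-07, 6 of 6). Rest and 6 h did not overlap in any cohort. By 24 h it was back at 9.56/5.92/3.74, 3.15 [1.61 to 6.67] and 4.39 [1.94 to 5.996] CPM, rising from 6 h by 3.56, 4.21 and 3.73. Against rest it was called higher in KI alone (0.74, -0.13 with library totals).

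On the efflux side the LXR receptors were higher at 24 h, while Abca1, Abcg1 and Apoe were lower or uncalled then. Nr1h3 (LXR-alpha) rose from 19.6/14.4/18.99 CPM at rest to 71.1/70.2/90.4 at 24 h in KO1, from 22.4 [19.1 to 23.98] to 69.7 [66.1 to 77.5] in KO2 and from 15.5 [14.1 to 17.2] to 40.4 [29.8 to 52.05] in KI. No library overlapped (2.13 ± 0.25 at adjusted p = 1.54e-06 in 3 of 3, 1.67 ± 0.11 at adjusted p = 3.03e-20 in 7 of 7 and 1.36 ± 0.14 at adjusted p = 8.98e-12 in 6 of 6). At 6 h it held 26.7/21.5/23.5, 29.1 [24.9 to 45.7] and 10.7 [5.77 to 15.4] CPM: uncalled in KO1, higher in KO2 (0.47, -0.36 with library totals) and lower in KI (-0.59). Nr1h2 (LXR-beta) was also called higher at 24 h in each cohort, at 1.80 ± 0.22, 0.81 ± 0.14 and 1.44 ± 0.15.

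Abca1, which exports cholesterol to apolipoprotein A-I, dropped at 6 h and partly returned. KO1 held 376/303/408 CPM at rest, 84.01/47.02/102 at 6 h and 127/176/121.3 at 24 h. KO2 held 74.3 [46.7 to 82.8], 16.2 [12.4 to 22.2] and 64.04 [54.6 to 85.9], and KI 70.1 [65.7 to 77.01], 11.9 [9.29 to 16.1] and 51.5 [26.8 to 73.9]. At 6 h no library reached the resting range (-2.22 ± 0.34 at adjusted p = 1.71e-05 in 3 of 3, -2.00 ± 0.17 at adjusted p = 2.23e-15 in 8 of 8 and -2.51 ± 0.19 at adjusted p = 1.76e-15 in 6 of 6). By 24 h it was lower than rest in KO1 (-1.36) and KI (-0.51), and uncalled in KO2 (0.01).

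Abcg1, which passes cholesterol to HDL, was highest at 6 h and lowest at 24 h in KI, where it held 148 [134 to 179.8] CPM, 241 [195 to 292] and 86.02 [70.2 to 104] with no overlap between times. Its change at 6 h was 0.65 ± 0.10 (adjusted p = 4.56e-07, 6 of 6), which turned to -0.56 with library totals, and at 24 h -0.82 ± 0.10 (adjusted p = 5.54e-09, 6 of 6). KO2 held 92.6 [72.7 to 100.5], 90.2 [77.1 to 103] and 40.1 [32.02 to 59.5], lower at 24 h (-1.12 ± 0.12 at adjusted p = 8.46e-12 in 7 of 7). KO1 held 142/105/167, 334/260.1/138 and 96.6/77.4/79.1 and was not called against rest. Apoe, the apolipoprotein that macrophages load with cholesterol, held 22690 [17230 to 27070] CPM at rest, 19900 [14890 to 23900] at 6 h and 5546 [4553 to 7274] at 24 h in KO2 and 16010 [13420 to 18620], 7732 [4651 to 12450] and 3831 [2378 to 4559] in KI. It fell by 24 h without overlap in both (-2.01 ± 0.13 at adjusted p = 5.06e-20 in 7 of 7 and -2.12 ± 0.20 at adjusted p = 1.07e-12 in 6 of 6). Its KO1 cultures were widely spread, at 10420/11000/4330, 6015/7010/3199 and 7603/5054/2732, and not called. Mylip peaked at 6 h in KO1 (29.2/32.5/22.4 CPM at rest, 52.7/69.5/50.2 at 6 h, 21.3/16.7/13.8 at 24 h, 1.03 ± 0.32 at adjusted p = 0.0101 in 3 of 3 at 6 h). That call was lost with library totals (0.007, adjusted p = 0.988) and without culture S34. In KO2 it held 57.6 [43.8 to 67.3], 68.3 [55.02 to 83.7] and 17.7 [14.8 to 20.8]. It was called lower at 24 h (-1.70) and higher at 6 h (0.25, -0.57 with library totals). In KI it held 59.1 [55.6 to 78.4], 79.2 [63.6 to 86.99] and 38.5 [23.4 to 66.4], called lower at 24 h (-0.58).

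Ch25h, the cholesterol 25-hydroxylase, changed most. Resting WT cells of KO1, KO2 and KI held 0.322/0.281/0.0763, 0.226 [0 to 0.288] and 2.37 [0.919 to 2.92] CPM, so few reads set the size of its folds. At 6 h the values were 235/234/182, 255 [225 to 372] and 781 [609 to 864] CPM, and at 24 h 14.96/4.14/11.7, 11.7 [9.89 to 15.3] and 18.9 [10.4 to 30.3]. All 3 times were apart in each cohort, with changes at 6 h of 9.78 ± 0.55 (adjusted p = 8.38e-11, 3 of 3), 10.33 ± 0.26 (adjusted p = 1.72e-40, 8 of 8) and 8.57 ± 0.23 (adjusted p = 4.98e-31, 6 of 6).

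Cyp27a1, the mitochondrial enzyme that makes 27-hydroxycholesterol, did the reverse. KO1 fell from 14.9/20.6/11.98 CPM to 8.49/7.59/5.63 and 1.01/2.603/1.82, and KO2 from 21.5 [17 to 24.6] to 4.32 [3.12 to 5.83] and 1.6 [1.26 to 2.15]. KI fell from 26.2 [23.9 to 34.96] to 5.34 [3.52 to 7.15] and 0.316 [0.174 to 0.9204]. No stimulated library reached the resting range (24 h: -3.13 ± 0.40 at adjusted p = 4.72e-06 in 3 of 3, -3.73 ± 0.20 at adjusted p = 2.87e-24 in 7 of 7 and -5.87 ± 0.26 at adjusted p = 1.33e-23 in 6 of 6).

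Soat1, which esterifies cholesterol for storage, dipped at 6 h and returned. KO1 held 304/308/343 CPM, 193/176/105 and 325/455/325 at 0, 6 and 24 h. KO2 held 386 [172 to 461], 99.5 [81.2 to 119] and 293 [218 to 346], and KI 378 [324 to 395], 176 [164 to 189.5] and 416 [309 to 498]. The 6 h and resting ranges were apart (-1.01 ± 0.30 at adjusted p = 0.00802 in 3 of 3, -1.85 ± 0.16 at adjusted p = 1.41e-15 in 8 of 8 and -1.07 ± 0.10 at adjusted p = 6.65e-13 in 6 of 6), and at 24 h only KO2 was called (-0.36). Lpl, which releases fatty acids from lipoproteins, fell from 2530/3704/759 CPM to 627/1093/304 and 47.9/42.4/14.9 in KO1 and from 3400 [3020 to 4102] to 2141 [1738 to 2466] and 137 [102 to 155] in KO2. In KI it fell from 990.5 [856 to 1024] to 544 [515 to 640.0] and 59.4 [25.4 to 105]. At 24 h no library came near rest (-6.06 ± 0.71 at adjusted p = 1.5e-06 in 3 of 3, -4.73 ± 0.16 at adjusted p = 1.64e-33 in 7 of 7 and -3.98 ± 0.23 at adjusted p = 4.41e-19 in 6 of 6).

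The members not named in full above, 12 with Scd1, ranged at 24 h against rest from -1.03 (Hsd17b7) to 1.80 (Nr1h2) in KO1, from -1.94 (Hsd17b7) to 0.81 (Nr1h2) in KO2 and from -1.24 (Hsd17b7) to 1.44 (Nr1h2) in KI, with 2, 6 and 6 called. Lss, which folds squalene epoxide into lanosterol, and Nsdhl, which helps to remove its methyl groups, fell at 6 h in KO2 (-1.18 and -1.17) and KI (-1.13 and -1.22). Mvd, the decarboxylase of the mevalonate branch, was called higher at 24 h in KO1 (1.03) and KO2 (0.38), but at -0.002 and -0.046 with library totals. Srebf1, which encodes SREBP1, was called in KI alone, lower at 6 h (-0.44) and higher at 24 h (0.45, -0.43 with library totals).

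In F121A macrophages 8 of 33 members were called against WT at 6 h, 1 at rest and 6 at 24 h. Those at 6 h were 6 synthesis enzymes, all lower, and 2 efflux genes, both higher. Hmgcs1, Idi1, Fdps, Sqle, Cyp51 and Sc4mol made up the lower calls, from -0.47 to -1.25 on the log2 scale, and Abcg1 and Apoe the higher ones. The background in KI at 6 h was 8.01% of all genes higher and 3.49% lower. The 2 higher calls were thus not a larger share of the members than of all genes. The median over the 16 synthesis enzymes was -0.46, beside 0.02 over all genes, and 4 of 16 were positive. The median over the 6 LXR and efflux genes was 0.37.

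Hmgcs1 held 61.6 [54.8 to 78.1] CPM in WT at 6 h and 35.4 [31.1 to 41.1] in F121A. Every F121A library lay below every WT library, at -0.83 ± 0.10 (adjusted p = 7.09e-08, 6 of 6). At rest (34.8 [31.3 to 36.3] CPM) and 24 h (15.1 [13.2 to 21.5]) F121A overlapped with WT and was not called (-0.16 and 0.14). Idi1 was also apart at 6 h, with 6.31 [5.92 to 8.04] CPM in F121A against 14.3 [11.6 to 21.5] in WT (-1.25 ± 0.22 at adjusted p = 0.000102 in 6 of 6). It was not at rest (10.3 [8.57 to 13.01], 0.24) or 24 h (0.734 [0.156 to 3.25], -0.29).

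Sc4mol changed sides between 6 h and 24 h. At 6 h F121A held 16.5 [14.6 to 19.9] CPM, all below the WT range of 24.7 to 32.3 (-0.77 ± 0.11 at adjusted p = 2.37e-06 in 6 of 6). At 24 h it held 37.7 [33.8 to 39.7], mostly above the WT range of 24.2 to 36.4 (0.38 ± 0.10 at adjusted p = 0.0121 in 6 of 6). At rest it held 35.1 [33.7 to 39.4] (-0.05, not called). The 24 h call was lost with library totals (adjusted p = 0.0847), with no filter (adjusted p = 0.103), and in each subset of 3 replicate numbers listed under processing except the odd ones.

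Fdps was lower in F121A at 6 h, with 2.53 [1.65 to 3.88] CPM against 5.31 [3.21 to 6.37] (-0.97 ± 0.24 at adjusted p = 0.00388 in 6 of 6). It was also lower at 24 h, with 1.28 [0.705 to 2.17] against 2.57 [1.22 to 4.09] (-0.997 ± 0.26 at adjusted p = 0.0105 in 6 of 6). The ranges overlapped at both times. At rest F121A held 8.88 [6.91 to 11.4] and was not called (0.24). Sqle was apart at 6 h, with 10.9 [7.77 to 11.9] against 14.4 [12.6 to 16.6] (-0.47 ± 0.13 at adjusted p = 0.0154 in 6 of 6). Cyp51 overlapped, with 14.8 [13.9 to 17.4] against 23.98 [17.3 to 25.9] (-0.58 ± 0.16 at adjusted p = 0.0102 in 6 of 6). Without the WT library at 6 h whose labels conflict, Sqle was at -0.42 (adjusted p = 0.0501). In KI libraries of odd numbers or numbers 1 to 3 alone, the 6 h calls on Fdps (-0.58 and -0.56, adjusted p = 0.291 and 0.438) and Cyp51 (-0.43 and -0.52, adjusted p = 0.336 and 0.193) were lost, and Sqle was lost in all 4 subsets of numbers (-0.27 to -0.70). At rest and 24 h Sqle held 13.9 [11.6 to 15.8] and 13.6 [10.9 to 15.4] and Cyp51 16.7 [12.98 to 17.9] and 5.4 [2.96 to 9.87], none called.

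**Figure D2:**
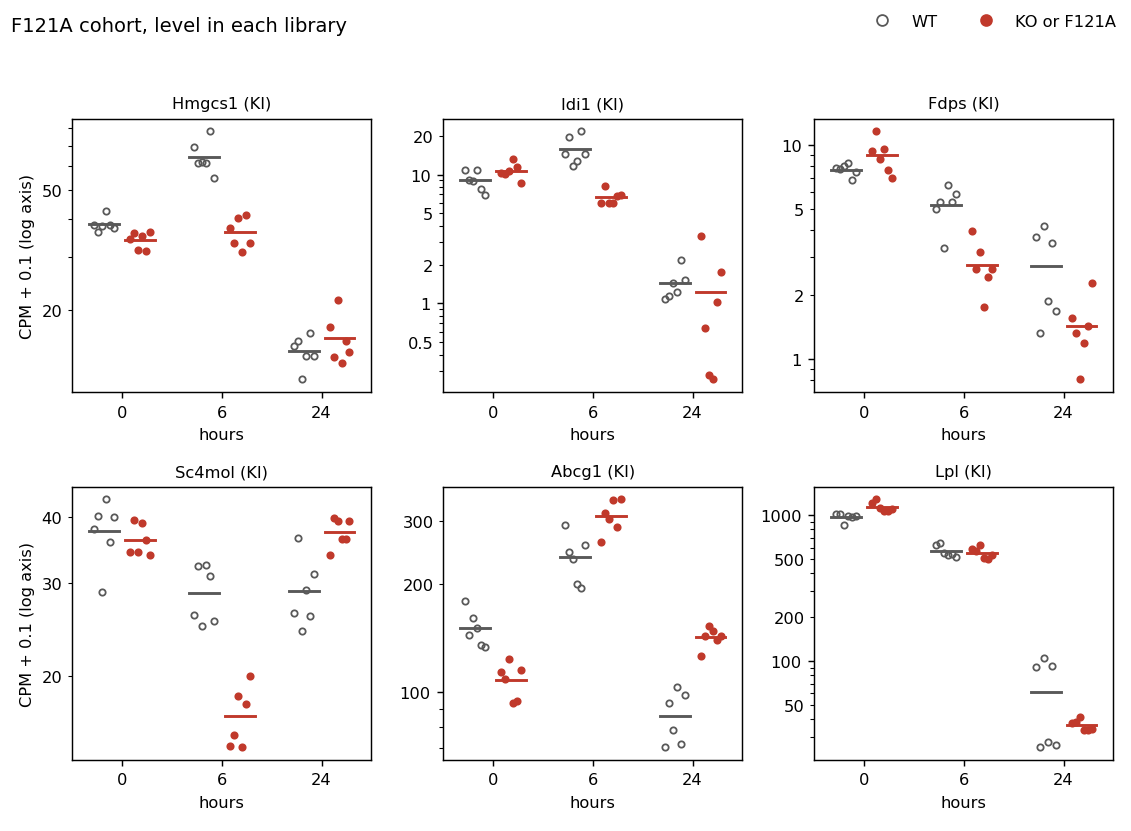
CPM (plus 0.1, log axis) of 6 members in each KI library at 0, 6 and 24 h, WT and F121A side by side, with lines at the group means. At 6 h Hmgcs1, Idi1 and Sc4mol of F121A lie wholly below WT, Abcg1 lies below WT at rest and above it at 24 h, and WT libraries of Lpl split into 2 levels at 24 h.

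Abcg1 crossed over. At rest F121A held 111 [93.5 to 123] CPM against 148 [134 to 179.8] in WT, apart and lower (-0.48 ± 0.10 at adjusted p = 0.00319 in 6 of 6). It was the only member called at rest, when 2.37% of all genes were higher and 0.574% lower. Lpl was the other member apart at rest, with 1111 [1070 to 1284] CPM against 990.5 [856 to 1024], but was not called (0.23 ± 0.21 at adjusted p = 0.778). Soat1 at rest (283 [277 to 333] against 378 [324 to 395], -0.32 ± 0.10 at adjusted p = 0.0668) missed the threshold in edgeR and passed it in DESeq2 (-0.33, adjusted p = 0.0193). At 6 h Abcg1 of F121A held 310.1 [262 to 345] against 241 [195 to 292], higher with overlap (0.38 ± 0.10 at adjusted p = 0.00996 in 6 of 6). That call was lost with library totals (adjusted p = 0.0801) and with no filter (0.335, adjusted p = 0.0821). It was also lost with odd numbers (0.245, adjusted p = 0.42) and numbers 1 to 3 (0.16, adjusted p = 0.589). At 24 h Abcg1 of F121A held 144 [126 to 153] against 86.02 [70.2 to 104], apart and higher (0.73 ± 0.10 at adjusted p = 5.35e-06 in 6 of 6). Its call at rest was not kept in any subset of 3 replicate numbers per group, where it ran from -0.44 to -0.52.

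Apoe in F121A held 12900 [9760 to 16060] CPM at 6 h against 7732 [4651 to 12450] in WT (0.68 ± 0.19 at adjusted p = 0.0129 in 6 of 6). Its libraries were in 2 sets: numbers 1 to 3 held 9833, 10650 and 9760 CPM and numbers 4 to 6 15600, 15150 and 16060. With numbers 1 to 3 alone the difference was 0.56 (adjusted p = 0.0931) and with 4 to 6 alone 0.75 (adjusted p = 0.071). At rest (14920 [9317 to 16420]) and 24 h (2752 [1751 to 3196]) it was not called (-0.14 and -0.43). Neutrophil markers, 10 genes, summed to 18.6 to 29.1 CPM in WT and 9.2 to 16.8 in F121A at 6 h, and Retnlg and Elane were at 0 in both groups. Dendritic cell markers, 5 genes, summed to 21.6 to 29.5 and 14.1 to 24.3. Of the 9 macrophage markers other than Lyz2, 5 were called higher and 1 lower in F121A at 6 h (8.01% and 3.49% of all genes). At 24 h 4 were called higher and 1 lower (3.42% and 3.78%). Their sum at 6 h overlapped, with 15300 to 18900 CPM in F121A and 11400 to 19300 in WT. The part of any of these markers in the F121A differences was not tested.

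At 24 h 3 members were higher and 3 lower in F121A, where 3.42% of all genes were higher and 3.78% lower. Besides Abcg1, Sc4mol and Fdps these were Soat1, Mylip and Lpl. Soat1 held 546 [462 to 581] CPM in F121A against 416 [309 to 498] in WT (0.38 ± 0.10 at adjusted p = 0.0095 in 6 of 6). Mylip held 23.97 [22.5 to 31.9] against 38.5 [23.4 to 66.4] (-0.76 ± 0.17 at adjusted p = 0.00216 in 6 of 6). Lpl held 35.8 [33.2 to 40.9] against 59.4 [25.4 to 105] (-0.77 ± 0.22 at adjusted p = 0.0203 in 6 of 6). All of these but Abcg1 overlapped with WT, whose libraries at 24 h stood in 2 sets. With only the 2 groups compared, the 24 h calls on Soat1 (adjusted p = 0.0584), Lpl (0.133) and Fdps (0.0659) were lost. Soat1 was also lost with library totals (adjusted p = 0.0696) and with no filter (0.0577).

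WT numbers 1, 3 and 5 held 91.2, 105 and 91.8 CPM of Lpl and numbers 2, 4 and 6 25.4, 27.5 and 26.3. Mylip had 47, 60.5 and 66.4 in the first set and 23.4, 30.04 and 28.8 in the second. Fdps had 3.63, 4.09 and 3.38 and 1.22, 1.76 and 1.59. Abca1 went the other way, with 38.2, 27.9 and 26.8 against 73.9, 64.7 and 69.7. Over all genes, deviations from the group mean correlated at -0.145 to 0.117 in the 6 pairs of numbers of the same set and at -0.436 to -0.175 in the 9 pairs across sets. The labels name no batch for these numbers, and the F121A libraries showed no such split in Lpl.

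With even numbers only, the 24 h difference was 0.41 for Lpl (adjusted p = 0.145), the opposite sign, 0.00 for Mylip to 2 decimals (adjusted p = 1), -0.03 for Fdps (adjusted p = 0.994) and 0.17 for Soat1 (adjusted p = 0.667). These 4 calls were thus not kept in the even-numbered libraries, whereas Abcg1 kept its 24 h call in every subset, at 0.55 to 0.93. Abca1, with F121A at 71.3 [59 to 84.3] CPM, missed the threshold over all libraries (0.49 ± 0.17 at adjusted p = 0.0668). It was called higher with the replicate block (0.53, adjusted p = 0.0385), in pairs (0.58, adjusted p = 0.00389), with no filter (0.48, adjusted p = 0.00401) and with the odd numbers alone (1.23, adjusted p = 3.78e-05).

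The remaining named members did not differ in F121A by the test. Mvk held 2.82, 0.757 and 1.65 CPM (medians at 0, 6 and 24 h) and Dhcr7 4.65, 1.17 and 0.9602. Insig1 held 26.8, 71.7 and 22.8 and Insig2 10.7, 20.2 and 21.6. Ch25h held 2.98 [1.94 to 3.84] CPM at rest, 981 [762 to 1099] at 6 h and 21.01 [17.5 to 22.4] at 24 h, overlapping with WT (0.57 ± 0.24, 0.35 ± 0.16 and 0.04 ± 0.18). Stard4 was at -0.61 ± 0.27 and Fasn at -0.84 ± 0.34 at 6 h, lower than the WT mean in 6 of 6 libraries each, with adjusted p of 0.141 and 0.112. Nr1h3, Cyp27a1, Scd2 and the members not named in full were likewise uncalled at 0, 6 and 24 h.

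KO2 knockout macrophages carried less Apoe at every time, and less Ch25h at 6 h, with few enzymes called. At rest 1 member was higher and 3 were lower (3.84% and 4.45% of all genes), at 6 h 2 and 5 (7.62% and 7.75%), and at 24 h 4 and 3 (6.26% and 5.06%). Over the 15 enzymes tested the medians were -0.21, -0.18 and 0.16 at 0, 6 and 24 h, beside 0.01, 0.02 and -0.02 over all genes. In KO1, with 3 cultures a group, no member was called at any time. The shares of all genes called in KO1 were 0.0146% higher and 0.0073% lower at rest, 0.0146% and 0.0073% at 6 h, and 0% and 0.0073% at 24 h. Of the members, 8, 1 and 4 had an unadjusted p under 0.05 in edgeR. DESeq2 also called 0 members at each time.

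Apoe in KO2 held 13190 [11270 to 16000] CPM at rest against 22690 [17230 to 27070] in WT. At 6 h KO held 7777 [6131 to 9228] against 19900 [14890 to 23900] and at 24 h 3007 [2358 to 4325] against 5546 [4553 to 7274]. The ranges never overlapped, and the differences were -0.72 ± 0.12 (adjusted p = 2.03e-05, 8 of 8), -1.34 ± 0.12 (adjusted p = 1.57e-12, 8 of 8) and -0.82 ± 0.13 (adjusted p = 1.54e-06, 8 of 8). The KO1 knockout cultures held 6802/8643/6455, 6359/8904/4758 and 3694/9328/4259 at 0, 6 and 24 h, overlapping with WT at each time (-0.23 ± 0.47, 0.30 ± 0.47 and 0.17 ± 0.47). The lower C1qa and C1qb moved with these values, and their part was not tested. Sex and genotype cannot be told apart in KO2.

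Ch25h in KO2 was apart at 6 h, with 124 [82.5 to 182] CPM against 255 [225 to 372] (-1.10 ± 0.13 at adjusted p = 6.7e-09 in 8 of 8). At 24 h the order turned, with 19.3 [12.3 to 27.8] against 11.7 [9.89 to 15.3] (0.64 ± 0.16 at adjusted p = 0.00444 in 8 of 8). At rest KO held 0.0814 [0 to 0.401]. In KO1 the 6 h cultures overlapped (369/233/227 in KO against 235/234/182 in WT, 0.35 ± 0.34 at adjusted p = 0.997). KO1 at 24 h was apart and higher (23.2/43.2/19.6 against 14.96/4.14/11.7, 1.47 ± 0.37 at adjusted p = 0.458), without a call. With no filter on low counts it was called (adjusted p = 0.000188). At rest KO held 0.654/0.571/0.614.

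**Figure D3:**
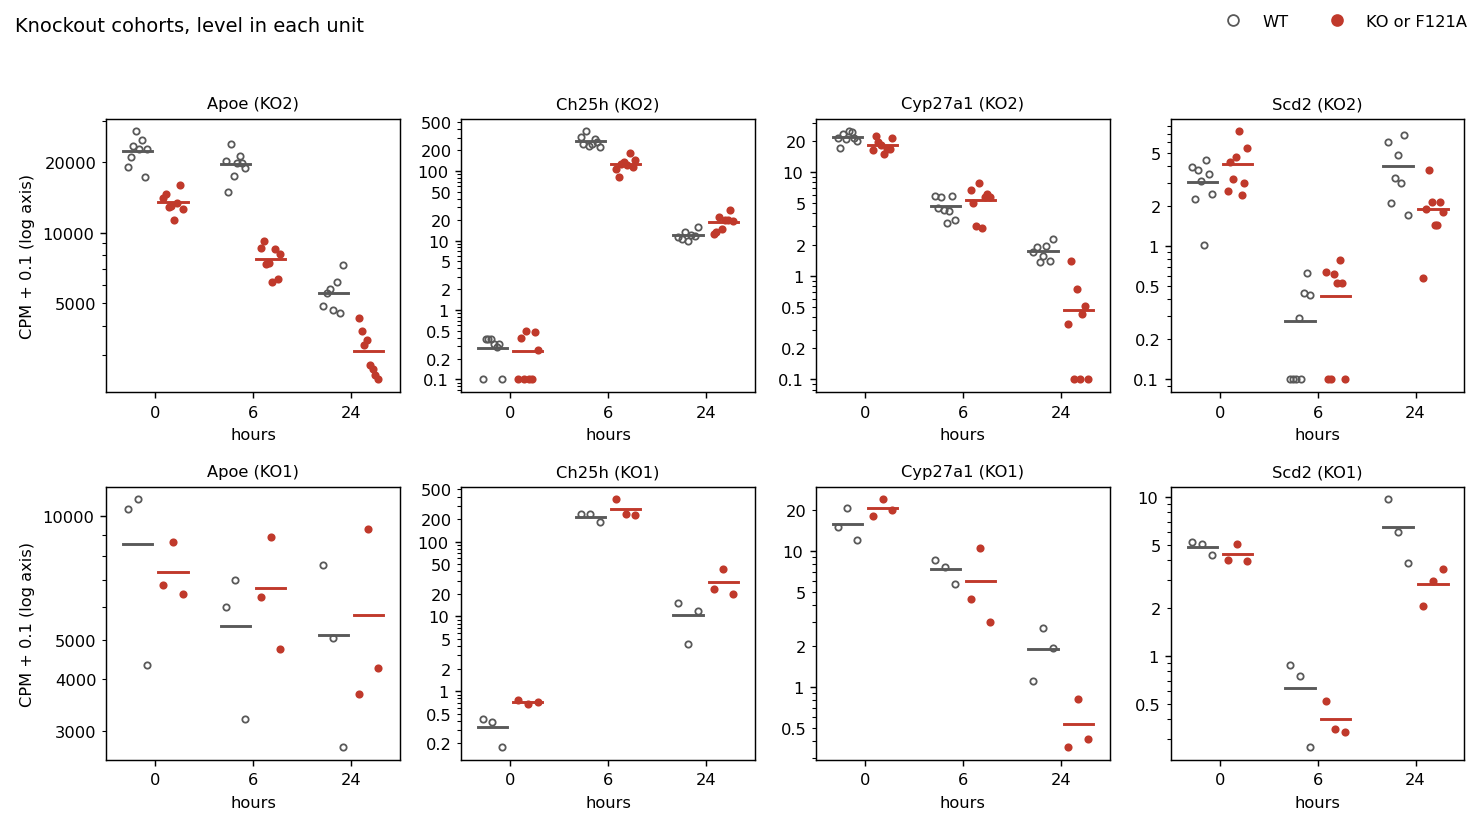
CPM (plus 0.1, log axis) of Apoe, Ch25h, Cyp27a1 and Scd2 in KO2 libraries (top) and KO1 cultures (bottom) at 0, 6 and 24 h, WT and KO side by side, with lines at the group means. Apoe of KO2 is lower in KO at each time, and Cyp27a1 at 24 h is lower in KO of both cohorts, called in KO2 alone.

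Cyp27a1 at 24 h was 0.287 [0 to 1.29] CPM in KO2 knockouts against 1.6 [1.26 to 2.15] in WT, barely overlapping (-2.00 ± 0.36 at adjusted p = 2.88e-05 in 8 of 8). Few reads stand behind these values. With only the 2 groups compared Cyp27a1 did not pass the filter on low counts and was not tested. The KO1 cultures were apart, at 0.257/0.714/0.3105 against 1.01/2.603/1.82 (-2.16 ± 0.61 at adjusted p = 0.512), a similar size without a call except with no filter on low counts (adjusted p = 0.00172). At rest and 6 h KO held 17.5 [14.9 to 22.3] and 5.67 [2.77 to 7.79] in KO2 and 18.2/24.1/20.1 and 4.31/10.6/2.88 in KO1, none called. Scd2 at 24 h was 1.76 [0.482 to 3.65] against 3.15 [1.61 to 6.67] in KO2 (-1.21 ± 0.32 at adjusted p = 0.00612 in 8 of 8), with overlap. In KO1 it was 1.97/2.85/3.42 against 9.56/5.92/3.74, apart but uncalled (-1.23 ± 0.33 at adjusted p = 0.506). At rest and 6 h Scd2 of KO held 3.66 [2.31 to 7.16] and 0.428 [0 to 0.684] in KO2 and 3.92/4.96/3.87 and 0.417/0.248/0.231 in KO1.

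Among the synthesis enzymes of KO2, Sqle was lower in KO at rest (12.7 [8.97 to 17.1] against 20.2 [11.2 to 24.1], -0.61 ± 0.16 at adjusted p = 0.00804 in 8 of 8), a call lost with library totals (-0.43, adjusted p = 0.097). It was 7 [2.28 to 11.1] at 6 h and 10.8 [8.75 to 14.3] at 24 h, uncalled. Sc4mol was lower at rest (39.6 [30.8 to 49.6] against 50 [44.5 to 54.3], -0.30 ± 0.09 at adjusted p = 0.0311 in 7 of 8). It was also lower at 6 h (20.1 [17.8 to 25.9] against 27.6 [21.04 to 32.7], -0.39 ± 0.10 at adjusted p = 0.0052 in 8 of 8), and at 24 h KO held 29.2 [21.8 to 35.7]. Both Sc4mol calls were lost with library totals (-0.12 and -0.17, adjusted p = 0.45 and 0.266). They were also lost with no filter (adjusted p = 0.137 each) and in threes (adjusted p = 0.256 and 0.0693). The resting call was lost with only the 2 groups compared as well (adjusted p = 0.0748). Fdps at 6 h was 2.03 [1.07 to 3.99] against 4.05 [3.11 to 7.03] (-0.81 ± 0.28 at adjusted p = 0.041 in 8 of 8). It was at -0.76 (adjusted p = 0.0531) without the 2 libraries that stood low for several members, at -0.61 (adjusted p = 0.13) with library totals, at -0.75 (adjusted p = 0.0818) with no filter and at -0.72 (adjusted p = 0.085) in threes. KO held 6.09 [3.95 to 6.42] at rest and 2.63 [1.17 to 5.103] at 24 h.

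At 24 h Idi1 and Cyp51 were higher in KO2 knockouts. Idi1 held 1.78 [0.729 to 3.62] CPM against 0.599 [0.269 to 1.48] (1.45 ± 0.38 at adjusted p = 0.00585 in 7 of 8). Cyp51 held 6.18 [3.36 to 7.404] against 3.77 [2.601 to 5.19] (0.59 ± 0.20 at adjusted p = 0.0467 in 7 of 8). The Cyp51 call was lost with library totals (adjusted p = 0.062), with no filter (adjusted p = 0.0956) and in threes (adjusted p = 0.0902). Their ranges overlapped. At rest and 6 h KO held 5.22 [1.303 to 7.37] and 4.78 [1.59 to 7.99] of Idi1 and 11.1 [5.86 to 14.8] and 10.8 [4.06 to 13.8] of Cyp51, uncalled. Hmgcs1 in KO was 21.5 [11.6 to 32.2], 33.6 [5.697 to 43.1] and 14.6 [10.3 to 18.9] at 0, 6 and 24 h. Mvk held 5.47 [3.04 to 6.18], 2.02 [0 to 2.88] and 3.49 [1.03 to 4.28], and Dhcr7 5.83 [3.01 to 7.98], 0.536 [0.215 to 1.28] and 1.27 [0.482 to 3.08]. None of these was called.

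Of the regulators, Insig2 was higher in KO2 knockouts at 6 h (20.6 [12.9 to 24.3] CPM against 12.9 [6.63 to 16.3], 0.66 ± 0.16 at adjusted p = 0.00217 in 8 of 8) and Insig1 at 24 h (27.2 [21.9 to 31.96] against 21.3 [16.7 to 24.4], 0.42 ± 0.14 at adjusted p = 0.0441 in 8 of 8), with overlap. The Insig1 call was lost with library totals (adjusted p = 0.105), with no filter (adjusted p = 0.0825), with replicate numbers as a block (adjusted p = 0.0563) and with libraries summed in threes (adjusted p = 0.0718). Nr1h3 at rest was 30.2 [26.04 to 40.05] in KO against 22.4 [19.1 to 23.98] in WT, apart and higher (0.47 ± 0.11 at adjusted p = 0.00199 in 8 of 8). At 6 h and 24 h KO held 35.8 [24.98 to 48.3] and 80.5 [65.4 to 93.6], uncalled. Mylip at 6 h was 84.3 [60.2 to 112] against 68.3 [55.02 to 83.7] (0.31 ± 0.10 at adjusted p = 0.0278 in 7 of 8), a call lost with only the 2 groups compared (adjusted p = 0.0915) and in threes (adjusted p = 0.0944). Lpl at 6 h was 1246 [928 to 1920] against 2141 [1738 to 2466], overlapping in range (-0.67 ± 0.13 at adjusted p = 0.000142 in 8 of 8). At rest and 24 h KO held 2358 [2021 to 4359] and 127 [112 to 143]. Abca1 (0.16 ± 0.15, 0.45 ± 0.18 and 0.27 ± 0.16 at 0, 6 and 24 h), Abcg1 (0.32 ± 0.11, 0.24 ± 0.12 and -0.18 ± 0.13), Soat1, Stard4 and Fasn were not called in KO2. Abca1 at 6 h passed the threshold with the replicate block (0.44, adjusted p = 0.0469), with no filter (0.50, adjusted p = 0.0198), with library totals (0.66, adjusted p = 0.00953) and without the 2 low libraries (0.50, adjusted p = 0.049). Abcg1 passed at rest with library totals (0.51) or only the 2 groups compared (0.34), and at 6 h with library totals (0.48) or without the 2 low libraries (0.31).

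In resting KO1 cells the 16 synthesis enzymes all had a positive difference, median 0.42 beside 0.01 over all genes, with none called. Idi1 held 10.3/3.82/7.62 CPM in KO against 2.38/4.89/2.44 in WT (1.13 ± 0.41 at adjusted p = 0.619 in 3 of 3). Fdps held 5.96/8.47/6.82 against 3.15/4.55/3.05 (0.98 ± 0.34 at adjusted p = 0.592 in 3 of 3) and Cyp51 14.8/6.98/11.5 against 6.89/8.54/7.25 (0.54 ± 0.27 at adjusted p = 0.83 in 2 of 3). Sc4mol held 42.2/38.9/41.3 against 31.4/35.8/30.2 (0.33 ± 0.16 at adjusted p = 0.8 in 3 of 3). Fdps and Sc4mol were apart between genotypes, and Idi1 and Cyp51 overlapped. Hmgcs1 was 34.1/16.5/20.9 in KO, and Sqle 11.04/9.17/9.03. Among the regulators Insig1 was 25.1/15.01/24.2 against 11.5/13.3/15.3 (0.68 ± 0.21 at adjusted p = 0.446 in 3 of 3).

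Neutrophil markers of KO1 summed to 86 to 134 CPM in WT and 177 to 637 in KO at rest, with none of the 10 genes at 0 in either group, and their part in the enzyme differences was not tested. Lpl of KO was 773/1600/988 against 2530/3704/759 (-1.06 ± 0.58 at adjusted p = 0.857), Abca1 361/260.1/294 against 376/303/408 and Abcg1 94.9/132/96.7 against 142/105/167. Abcg1 at 6 h was 57.5/292/55.1 in KO: the middle culture, S37, stood with the WT cultures at 334/260.1/138, and without it the difference was -2.11 (adjusted p = 0.0169). The median over the enzymes in KO1 was 0.02 at 6 h and 0.18 at 24 h.

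**Figure D4:**
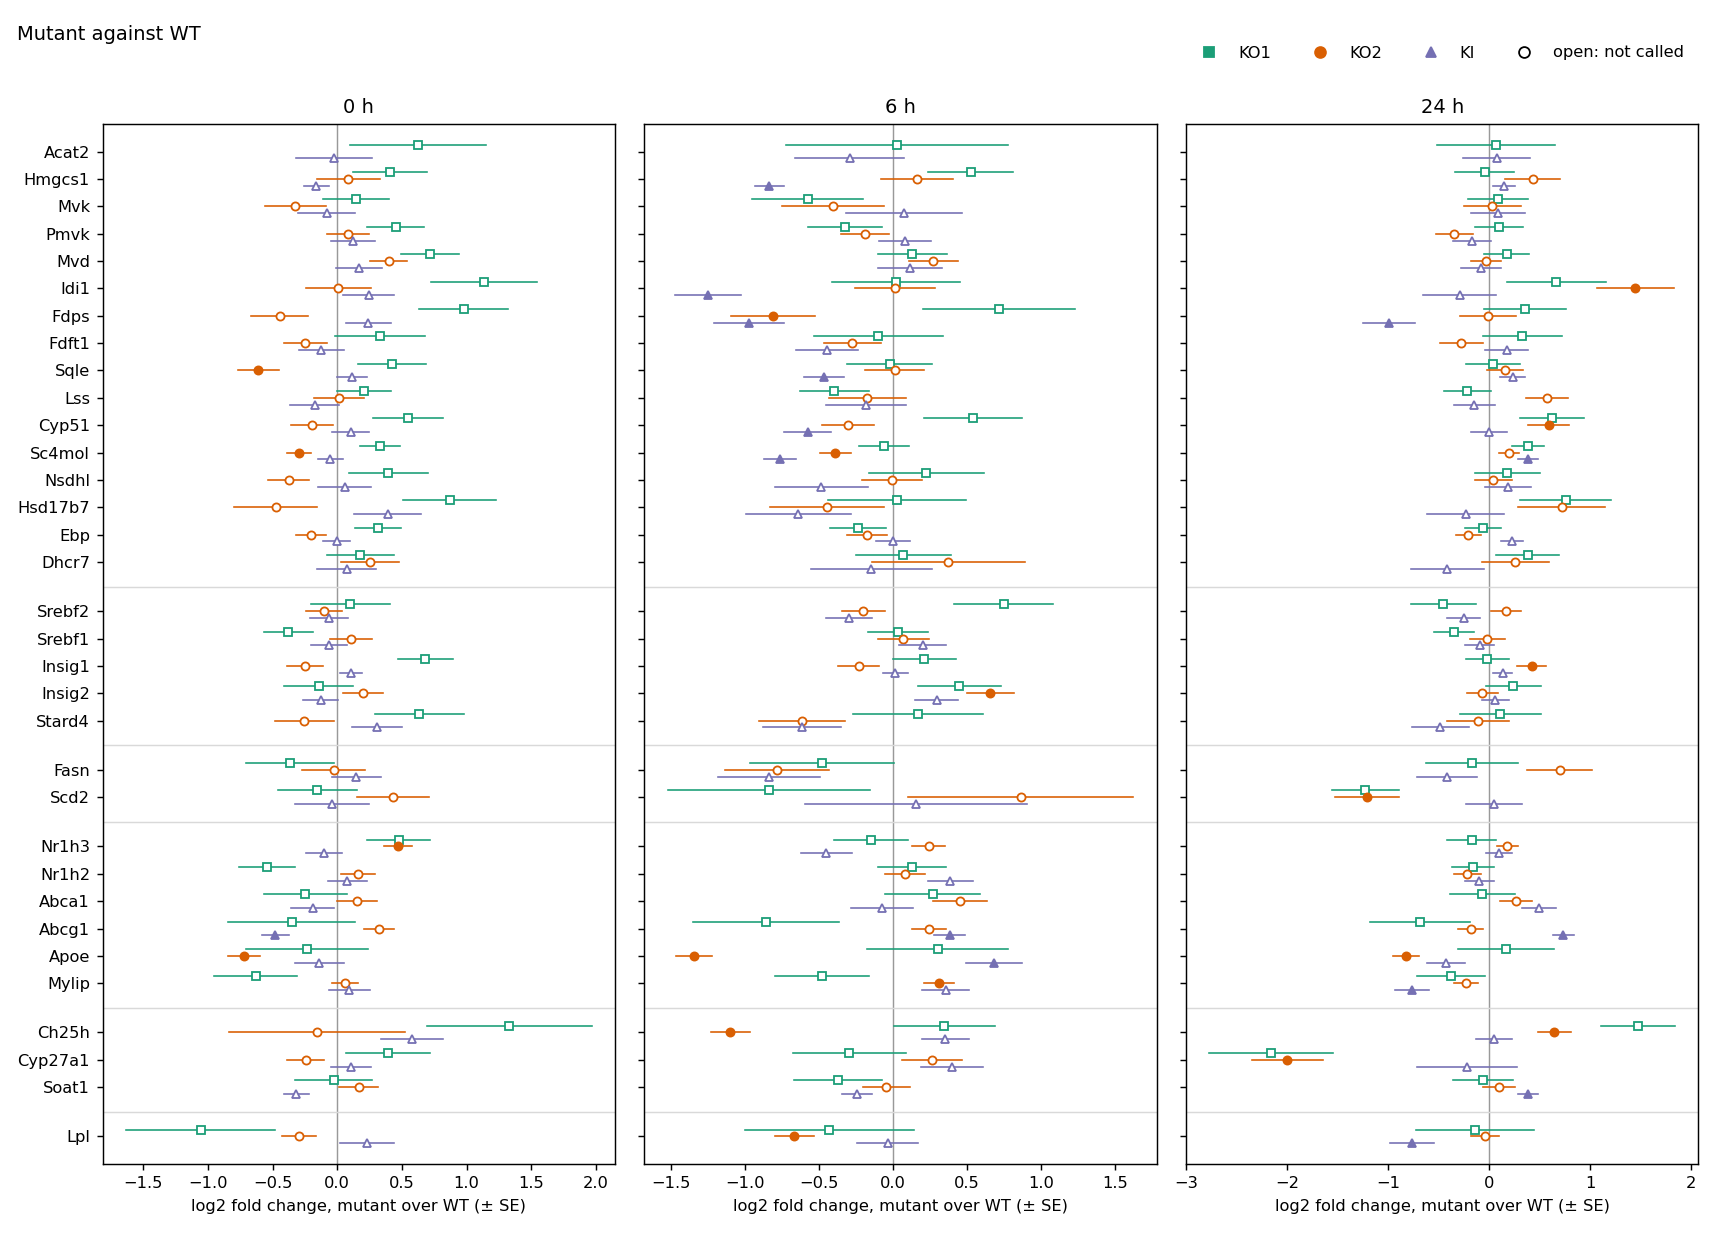
Log2 fold change ± SE of the tested members, mutant against WT, at 0, 6 and 24 h (panels) in KO1 (squares), KO2 (circles) and KI (triangles), filled where called. All but 4 of 16 KI enzymes lie left of 0 at 6 h, Apoe of KO2 lies left of 0 at each time, and KO1 has wide errors and no filled point.

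The genotype difference itself changed with time (a joint test of 6 h and 24 h against rest) for 10 members in KO2, where 11.9% of all genes did, for 9 in KI (8.29%) and for 0 in KO1 (0%, with 1 member at an unadjusted p under 0.05). In KO2 these were Idi1, Sqle, Cyp51, Sc4mol, Insig1, Scd2, Apoe, Mylip, Ch25h and Cyp27a1, and in KI Hmgcs1, Idi1, Fdps, Sqle, Sc4mol, Abcg1, Apoe, Mylip and Soat1. Mylip in KO2 (adjusted p = 0.0488) was lost with the RLE factors of DESeq2, with no filter and with DESeq2 (highest adjusted p = 0.0586), and Sqle in KO2 with the replicate block (adjusted p = 0.0555). With no filter Apoe (adjusted p = 0.129), Cyp51 (0.059) and Sc4mol (0.0902) in KO2 and Sqle in KI (0.0544) were also lost. Cyp51, lower at 6 h in KI, did not pass this test there.

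Set against each other in a joint fit, the genotype differences of KO2 and KI differed for 3 members at rest, 5 at 6 h and 2 at 24 h, where 3.87%, 12.2% and 7.1% of all genes did. The 2 cohorts share no control libraries. At rest KO2 exceeded KI for Abcg1 (0.80 ± 0.16 at adjusted p = 0.000449) and Nr1h3 (0.57 ± 0.17 at adjusted p = 0.0363) and fell below it for Sqle (-0.72 ± 0.21 at adjusted p = 0.0248). At 6 h KO2 was above KI for Hmgcs1 (1.03 ± 0.30 at adjusted p = 0.0101), Idi1 (1.30 ± 0.36 at adjusted p = 0.00738) and Nr1h3 (0.72 ± 0.20 at adjusted p = 0.00632), and below for Apoe (-1.99 ± 0.22 at adjusted p = 1.47e-11) and Ch25h (-1.42 ± 0.21 at adjusted p = 1.91e-07). At 24 h Idi1 was above (1.75 ± 0.54 at adjusted p = 0.0287) and Abcg1 below (-0.92 ± 0.17 at adjusted p = 3.44e-05). Apoe at 6 h thus moved down in the KO2 knockout and up in F121A, and the difference, built from the same libraries, was called as well. In KO1 Apoe was not called at 6 h. The F121A call was not kept in any subset of 3 replicate numbers, and in KO2 sex cannot be told apart from genotype.

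The 2 knockout cohorts differed from each other for 0, 2 and 0 members at 0, 6 and 24 h (0.488%, 0.386% and 0.275% of all genes). Those 2 were Apoe (-1.62 ± 0.35 at adjusted p = 0.00933) and Ch25h (-1.40 ± 0.31 at adjusted p = 0.0142) at 6 h. At rest edgeR called 0 with 13 at an unadjusted p under 0.05, and DESeq2 called 3: Fdps (-1.43), Insig1 (-0.92) and Sc4mol (-0.62). At 24 h both tools called 0, with 3 at an unadjusted p under 0.05 in edgeR.

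To set synthesis against efflux, the mean log2 CPM of the 16 enzymes was taken minus that of the 6 LXR and efflux genes in each library. This is a description, with no test, and only its differences between groups have meaning. In KI at 6 h it was -3.90 ± 0.19 (SD, n = 6) in WT and -4.54 ± 0.27 (SD, n = 6) in F121A, with ranges of -4.22 to -3.65 and -4.80 to -4.21 that overlapped slightly. The F121A minus WT difference at 0, 6 and 24 h was 0.18, -0.65 and -0.10. In KO2 the KO minus WT difference was -0.21, -0.15 and 0.25, and in KO1 0.76, 0.31 and 0.48. At 0 h KO1 held -4.32 ± 0.28 (SD, n = 3) in WT and -3.56 ± 0.19 (SD, n = 3) in KO, without overlap.

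Over time the WT index fell by 0.60 from rest to 24 h in KI, by 0.55 in KO2 and by 0.33 in KO1. That direction depends on the receptors and Mylip being on the efflux side: with Abca1, Abcg1 and Apoe alone there, it rose by 0.34, 0.10 and 0.67. The genotype differences of KI at 6 h and KO1 at rest moved by less than the spread between libraries under that choice.

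**Figure D5:**
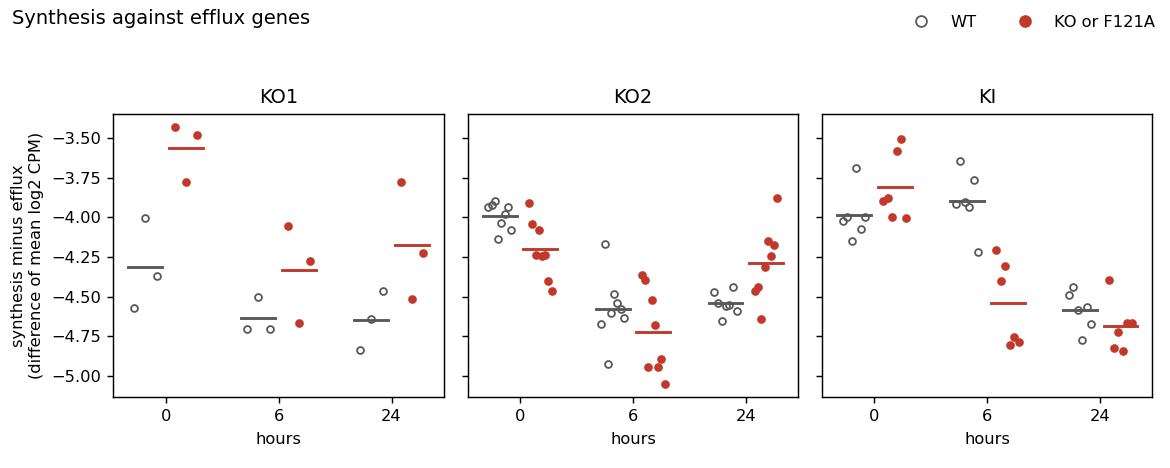
Mean log2 CPM of 16 synthesis enzymes minus that of 6 LXR and efflux genes in each library or culture, by genotype and time, in KO1, KO2 and KI, with lines at the group means. F121A at 6 h lies mostly below WT in KI and KO at rest lies above WT in KO1, while the fall of WT over time turns to a rise with Abca1, Abcg1 and Apoe alone on the efflux side.

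A second list holds 39 other genes of the same pathways, of which 38, 33 and 35 were tested in KO1, KO2 and KI. In WT at 6 h 3 rose and 17 fell in KO1, 6 and 23 in KO2 and 7 and 24 in KI, with medians of -1.04, -1.05 and -1.06. Of all genes 25.7% rose and 31.1% fell in KO1, 32.5% and 38.3% in KO2 and 36.7% and 36.8% in KI. At 24 h the counts were 6 and 17, 6 and 19, and 7 and 24, beside 21.3% and 20.6%, 29.6% and 29.7%, and 33.9% and 29.9% of all genes. Among the 5 with the largest changes at 6 h were Fads1, a fatty acid desaturase (-4.12, -3.85 and -4.21 in KO1, KO2 and KI) and Lrp1, a lipoprotein receptor (-3.31, -2.86 and -2.63). Others were Nceh1, a cholesterol ester hydrolase (-2.62, -3.65 and -2.77) and Lipa, the lysosomal lipase (-2.41, -2.96 and -2.93).

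Between genotypes, 9 of these genes were called in KI at 6 h. The phosphodiesterase Smpdl3a (-0.48), also a known LXR target, was among the 3 of 35 that were lower in F121A, where 3.49% of all genes were lower. Higher were 6, beside 8.01% of all genes, among them the late endosomal cholesterol carrier Stard3 (0.44 ± 0.08 at adjusted p = 0.000189) and the known LXR targets Pltp (0.60 ± 0.11 at adjusted p = 0.000195), a phospholipid transfer protein, and Arl4c (0.67 ± 0.15 at adjusted p = 0.00229), a small GTPase. In KO2 Pltp was lower at rest (-0.57 ± 0.13 at adjusted p = 0.00107) and at 6 h (-0.56 ± 0.13 at adjusted p = 0.000984), as Apoe was. Nceh1 was lower at rest (-0.52 ± 0.09 at adjusted p = 3.18e-05). At 24 h Nceh1 was higher in KI (0.50 ± 0.10 at adjusted p = 0.000704). Fads1 was lower at 24 h in KI (-0.65 ± 0.17 at adjusted p = 0.0137) and KO2 (-0.65 ± 0.16 at adjusted p = 0.00354), and no gene of this list was called in KO1.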

How the data were processed

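Total RNA of 137 macrophage libraries was sequenced as oligo-dT primed Smart-Seq2 libraries, per the labels' protocols. The deposited tables, one for each of KO1, KO2 and KI, hold raw read counts per gene symbol, which the authors made with TopHat and HTSeq on mm10, per the submitters' processing notes. Versions and counting settings are not given in the sources used here. The protocol marks neither strand nor single molecules, so that overlapping genes share reads and PCR copies count.

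The 3 repeats of a KO1 culture were summed, to 7160692 to 13050478 counts a culture. Tests used edgeR 4.0.16 in R 4.3.3: filterByExpr, TMM scaling, then the quasi-likelihood test in 1 fit per cohort with a mean for each of 6 groups. The genes tested numbered 13693 (KO1), 10794 (KO2) and 11500 (KI), and 11782 and 12705 in the joint fits of KO2 with KI and with KO1. The Benjamini-Hochberg adjustment of p-values ran over every gene in the fit. Scd1 had 51, 19 and 9 counts in all in KO1, KO2 and KI, and Acat2 259 in KO2. The index added a prior count of 2. The test was tried on simulated counts with known changes. Gene positions came from GENCODE vM21 (mm10) and promoters from RefSeq (GRCm38.p6).

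All members are accounted for. Values of every group are given for members called between genotypes and for the 3 in each role with the largest median absolute change in WT. Of the second list, up to 5 genes of smallest adjusted p per comparison and the 5 with the largest WT change may be named. The members, the lists and the alternatives were chosen with earlier results of these data known.

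Alternatives were DESeq2 1.42.0, edgeR with the RLE factors of DESeq2, a filter of only 1 count, library totals, a replicate block, only the groups compared, each KO1 culture left out, KO2 libraries summed in threes and KI in pairs, and libraries with conflicting labels left out. Added after seeing the data were library totals, KI odd, even, 1 to 3 or 4 to 6 replicate numbers alone, and KO2 without the 2 libraries that stood low.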

Additional observations from a re-analysis of the deposited data

Results flagged for a closer look

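In 260 groups of values (a member or the index in the libraries of a group), 15 had a library that stood apart from the rest of its group by Dixon's criterion, where chance gives about 1 in 20. In KO2 the KO 6 h library number 7 was lowest for Hmgcs1 (5.697 CPM, others 26.76 to 43.15), Insig1 (17.55, others 29.89 to 37.06) and Soat1 (35.78, others 96.99 to 133.3). KO number 6 at rest was lowest for Fdps (3.947) and highest for Nr1h3 (40.05). Also high were Dhcr7 in KO number 8 (3.085) and Stard4 in KO number 4 (5.103) at 24 h, and Nr1h3 in WT number 4 at 6 h (45.67), while Dhcr7 was lowest in WT number 1 at 24 h (0.2). In resting KI WT cells, number 4 was highest for Hmgcs1 (42.49) and for the index (-3.687), number 2 was highest for Fasn (11.27) and number 3 lowest for Lpl (856). Fasn was highest in KI WT number 5 at 24 h (3.946), and Apoe lowest in resting F121A number 5 (9317).

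The genotype difference changed with time in KO2 and KI for the members below, by edgeR's joint test of both times. The value is the log2 genotype difference at the named time minus that at rest. In KO2 at 6 h it was -0.62 for Apoe and -0.94 for Ch25h. At 24 h it was -1.75 for Cyp27a1, -1.65 for Scd2 and -0.29 for Mylip, and 1.44 for Idi1, 0.78 for Cyp51, 0.76 for Sqle, 0.67 for Insig1 and 0.49 for Sc4mol. In KI at 6 h it was -1.49 for Idi1, -0.71 for Sc4mol, -0.67 for Hmgcs1, -0.58 for Sqle and 0.82 for Apoe. At 24 h it was 1.21 for Abcg1, 0.7 for Soat1, -0.85 for Mylip and -1.24 for Fdps. Of the enzymes, Idi1, Sqle and Sc4mol passed in both cohorts, though Sqle and Sc4mol were lost in KO2, or Sqle in KI, under an alternative named in the results above. At 24 h Sc4mol (0.49 and 0.44) and Sqle (0.76 and 0.12) were positive in KO2 and KI, and Idi1 was positive in KO2 and negative in KI (-0.54).

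Between cohorts, the KO2 genotype difference minus that of KI was 0.8 for Abcg1, 0.57 for Nr1h3 and -0.72 for Sqle at rest. At 6 h it was -1.99 for Apoe, -1.42 for Ch25h, 1.03 for Hmgcs1, 1.3 for Idi1 and 0.72 for Nr1h3, and at 24 h -0.92 for Abcg1 and 1.75 for Idi1. The KO2 difference minus that of KO1 at 6 h was -1.62 for Apoe and -1.4 for Ch25h. Cohort, and in KO2 sex, cannot be told apart from these differences.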

How the results depend on the processing

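All 33 genotype calls on members were kept with DESeq2 and with its size factors in edgeR, and of 127 time calls 127 and 126 were. With no filter 25 genotype calls were kept, and with library totals 24. With only the groups compared 26 of 31 were kept, with KO2 libraries in threes 12 of 18, and with KI libraries in pairs 15 of 15. The calls missing from those 31 were in KO2 at 24 h, where the genes, Cyp27a1 among them, did not pass the filter on 2 groups. In KI, odd numbers kept 9 of 15, even numbers 7, numbers 1 to 3 8 and numbers 4 to 6 7. These subsets hold fewer libraries, which lowers what the test can call. The labels do not say that a number marks a shared mouse or day. Deviations of same-numbered samples correlated at over 0.1 in 11 of 18 pairs in KO1, 19 of 115 in KO2 and 5 of 90 in KI. In KO1 most pairs were thus over that value. The numbers were not taken as pairs in the main tests of any cohort. With them as a replicate block 32 of 33 genotype calls were kept (Insig1 in KO2 at 24 h was lost) and 98 of 99 time calls in KO2 and KI. With the KO1 culture number as a block 28 of 28 were kept. Of 19 genotype by time calls 14 were kept with no filter and 18 each with the block, DESeq2 and its size factors. With KO1 cultures left out in turn 23 to 28 of its 28 time calls were kept.

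Counts of members called moved by over 1.5 times as follows, and the cause was not tested. In KO1 genotype comparisons, 0 became 1 at rest (Idi1), 2 at 24 h (Ch25h and Cyp27a1) and 1 for genotype by time (Cyp27a1) with no filter. At 6 h it ran from 0 to 1 with a culture left out. With library totals KO1 WT calls went from 16 to 25 at 6 h and from 12 to 28 at 24 h. In KO2 at 6 h, 7 became 4 in threes. In KI at rest, 1 became 2 (Soat1 added) with the replicate block, only the groups compared or DESeq2, and 0 in each of the 4 subsets of numbers. At 6 h, 8 became 3 with odd numbers or 1 to 3. At 24 h, 6 became 3 with only the groups compared, and 1 with even numbers or 4 to 6. Between KO2 and KO1 at rest, 0 became 1 (Fdps) with no filter and 3 with DESeq2.

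Library totals turned 17 time calls on members. In KO1 Mvd was at -0.2 (6 h) and -0.002 (24 h). In KO2 at 6 h Mylip was at -0.567, Nr1h3 at -0.356 and Pmvk at -0.004, and at 24 h Mvd at -0.046. In KI at 6 h Abcg1 was at -0.559, Cyp51 at -0.614, Hmgcs1 at -0.449, Idi1 at -0.401, Insig2 at -0.762, Nr1h2 at -0.34, Pmvk at -0.389 and Srebf2 at -0.498. At 24 h Insig2 was at -0.088, Scd2 at -0.133 and Srebf1 at -0.432. Lpl in KI at 24 h between genotypes turned to 0.405 with even numbers.

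With Abca1, Abcg1 and Apoe alone on the efflux side, the change of the WT index at 6 h and 24 h was 0.267 and 0.673 in KO1, 0.066 and 0.104 in KO2, and 0.645 and 0.34 in KI. The genotype difference was then -0.056 in KO2 at rest and -0.355 in KI at 24 h. With a prior count of 0.5 the 24 h change in KO2 WT was -0.637. For members under a few CPM (Scd2, Dhcr7, Fdps, Ch25h at rest, and Cyp27a1 and Idi1 at 24 h) few reads stand behind each value, so that small differences could not be detected.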
